A study of Homo sapiens with 45 samples.

Results

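The genes described are 55 cytosolic ribosomal protein genes, 26 of the small (40S) and 29 of the large (60S) subunit. They were chosen by symbol from a fixed list and by the Ensembl identifier of the protein-coding gene, so that their processed pseudogenes were not counted as members. All 55 were found among the 15698 genes of the normalised expression matrix. The cells were HCT116-VR, a vorinostat-resistant derivative of HCT116, which is a human colorectal carcinoma line. They were reverse transfected with lipid only (mock) or with one of 14 SMARTpool siRNAs (siBEGAIN, siCCNK, siCDK10, siDPPA5, siEIF3L, siGLI1, siJAK2, siNFYA, siPOLR2D, siPSMD13, siRGS18, siSAP130, siTGM5 and siTOX4) at 40 nM, and harvested after 48 h. There were 15 conditions with 3 libraries apiece, 45 in all, and the replicates were separate biological experiments. Mock was the negative control. All conditions share the resistant line and the transfection lipid, and none carries a non-targeting siRNA by its label. The epithelial markers EPCAM, CDH1, KRT8, KRT18 and KRT19 were found in every library at 565 reads or more, VIL1 was not among the genes of the matrix, and none of 4 lymphoid and myeloid and 2 endothelial markers was among them. Of 3 fibroblast markers COL1A1 was found, at 33 to 314 reads.

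Ribosomal proteins and ribosomal RNA make up the subunits that translate every mRNA of the cell, and their genes are among the most strongly transcribed by RNA polymerase II. Cells make them in near equal amounts, and a protein left without its place in a subunit is degraded. Their mRNAs start with a C and a stretch of pyrimidines, the terminal oligopyrimidine (TOP) motif, through which mTOR signalling sets how well they are translated. Proliferating carcinoma cells such as HCT116 spend much of their growth on ribosomes. Free RPL5 and RPL11 can bind MDM2, the ubiquitin ligase of p53, and RPS19 is the gene most often mutated in Diamond-Blackfan anaemia.

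Library columns are tied to sample names only by the sample list of the study, and the siRNA targets went against that list. Of the 14 targets 11 were measured. The library with the lowest log2 value carried the name of its own siRNA for 1 of them (EIF3L, 102 reads against a median of 6113). For 8 none of the 3 lowest libraries did. In reads, POLR2D was also lowest under its own name, with 87 in siPOLR2D replicate 3 and 102 in mock replicate 2. For CCNK the libraries under the name siCCNK held 1001, 1228 and 1652 reads, and the median over all libraries was 1021. Names are therefore used below as names only. Values are described over all 45 libraries, no library was given another condition, and no average was taken over libraries chosen by their values. The spread over libraries is then the error against which a value can be read, and it holds differences between conditions as well as between experiments.

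Windows of 60 bases around the start of transcription are shown for the genes most and least like the rest of the set, since the set is known for a TOP motif at its starts. RefSeq starts (GRCh38.p14) were matched by symbol for 46 of the 55 members, with 60 starts. A C followed by 4 pyrimidines (C or T) directly at a listed start was found for 32 of these 46 members (69.6%), against 5.03% of 27259 other genes. A run of 8 or more pyrimidines within 30 bases either side of a start, on the strand of the gene, was found for 41 members (89.1%), against 27.8% of the other genes. The same bases can count for both features. The longest run need not hold the start motif, and that of RPL31 (13 bases from base −28, counted from the start) lies upstream of it. Capitals mark the longest run of pyrimidines in the window, and the first transcribed base is base 31 of each line. The first 3 lines are RPL31 (chr2:101002259-101002318, plus strand), RPL4 (chr15:66504826-66504885, minus) and RPS3 (chr11:75399488-75399547, plus), whose profiles were most like those of the other members.
RPL31: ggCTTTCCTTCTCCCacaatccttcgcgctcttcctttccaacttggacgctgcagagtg
RPL4: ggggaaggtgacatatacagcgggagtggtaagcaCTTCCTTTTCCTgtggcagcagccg
RPS3: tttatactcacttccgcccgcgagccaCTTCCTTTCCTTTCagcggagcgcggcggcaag

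The next 4 lines are the least alike. They are RPL15 (chr3:23917102-23917161, plus, 1 of 3 listed starts and the one with the longest run), RPS24 (chr10:78033833-78033892, plus), RPS28 (chr19:8321466-8321525, plus) and RPL22 (chr1:6199566-6199625, minus).
RPL15: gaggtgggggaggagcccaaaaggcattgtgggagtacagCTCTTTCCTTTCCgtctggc
RPS24: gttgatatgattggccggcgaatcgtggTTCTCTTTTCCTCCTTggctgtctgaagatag
RPS28: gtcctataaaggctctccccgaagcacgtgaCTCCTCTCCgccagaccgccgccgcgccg
RPL22: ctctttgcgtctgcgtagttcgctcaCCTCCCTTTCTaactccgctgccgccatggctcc
All 7 windows hold a pyrimidine run of 9 or more bases. No listed start of RPL4, RPL15 or RPS28 has the C followed by 4 pyrimidines directly at the start, whereas those of RPL31, RPS3, RPS24 and RPL22 do. The start motif, as scored at the exact listed base, did not separate the alike from the unalike members. In the windows shown, the longest runs of RPL4 and RPL15 begin at transcribed bases 6 and 11. Whether members without the scored motif lack a TOP motif was not tested, so the split does not tell whether the motif matters. The 32 members with it had a median correlation with the other members of 0.77 (0.25 to 0.94), and the 14 without it had 0.82 (0.02 to 0.93), both as descriptions over the same 45 libraries.

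The members took 1.89 to 2.995% of all reads of a library, with a median of 2.51%. Libraries held 7569592 to 21149597 reads, and 47 of the 55 members had a median of 1000 reads or more, so that counting error was small for most of them. Levels can be compared between genes only per length of transcript, which is given here as RPKM, reads scaled to the length of the canonical transcript in kb and to the reads of the library. On that scale 45 members had a median above 100. RPL8, a protein of the 60S subunit near the peptidyl transferase centre, was highest with a median of 2126 RPKM (lowest library 1512, highest 2545). RPL30, a small 60S protein, followed at 1386, and RPS24, needed for the processing of the 18S rRNA precursor, at 1275. The ranges of RPL30 (1165 to 1723) and RPS24 (601.9 to 1585) overlapped, so the order of these neighbours does not hold beyond their spread.

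The lowest 3 were far below the rest. RPS28, a small 40S protein at the mRNA exit channel, had a median of 2.33 RPKM, RPL7, a 60S protein, had 8.66, and RPS27, a zinc-finger protein of the 40S subunit, had 10.4. RPS27 and RPL7 overlapped (3.88 to 18.6 and 4.43 to 12.4), whereas the highest library of RPS28, 3.71, lay below the lowest of either. The canonical transcript was 1330 bases for RPS28 and 352 for RPS27, at median reads of 33 and 41. The place of RPS28 below RPS27 thus depends on the transcript length used. The same limit holds for other members with a long canonical transcript, such as RPL14 (7136 bases). In reads, RPS28 had 20 to 64 per library and RPS27 had 17 to 84, so these rest on few reads in each library. The plot of level per kb shows the drop of these 3 from the neighbouring member RPS3A, a 40S protein, at 35.6.

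**Figure D1:**
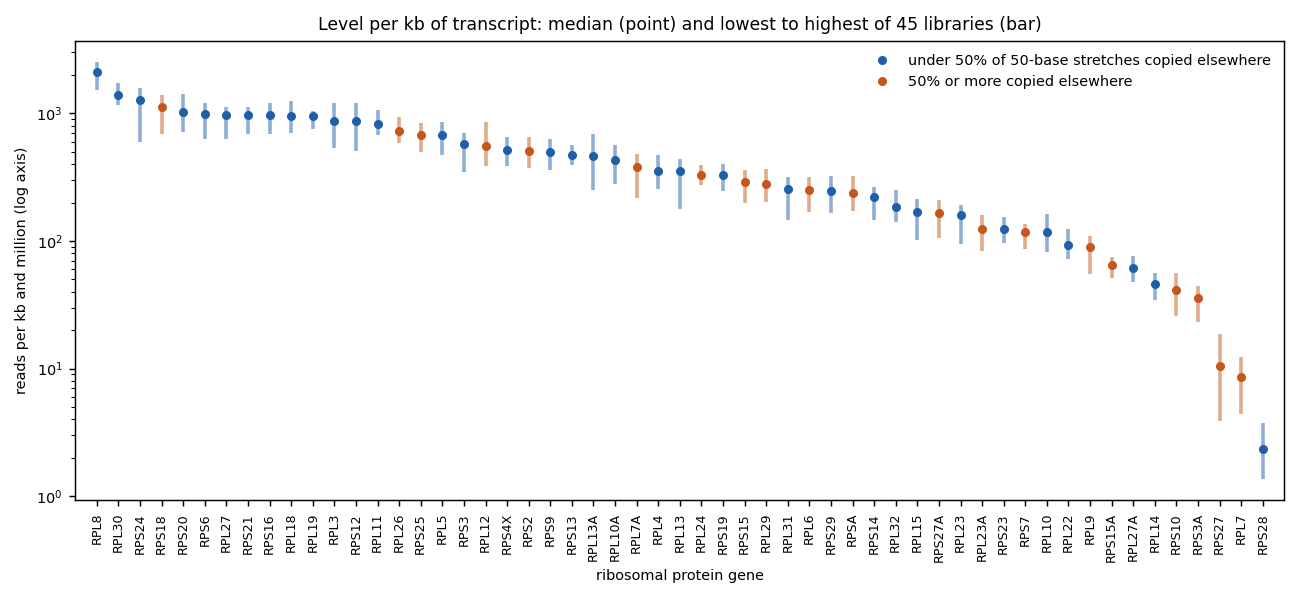
RPKM (log axis) for the 55 genes, ordered by their median, where points are medians of 45 libraries and bars run from the lowest to the highest library. Orange marks genes with 50% or more of their 50-base stretches copied elsewhere in GRCh37. RPL8 stands on top at 2126, and RPS27, RPL7 and RPS28 sit below all others at 10.4, 8.66 and 2.33.

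Ribosomal protein genes have many processed copies in the genome, and a short read from a copied stretch can be placed in more than 1 locus. The annotation lists 1135 pseudogenes named after these 55 members, up to 88 for 1 gene, of which 217 had values of their own in the matrix. For 6 members the reads assigned to such pseudogenes exceeded those assigned to the gene itself. RPS28 pseudogenes held 5070% of the reads of RPS28, and RPS27 pseudogenes 2502% of the reads of RPS27. The values for RPL7, RPS27A, RPL24 and RPS2 were 554%, 221%, 112% and 103%. RPS27A is the gene that encodes ubiquitin fused to a 40S protein. Measured by sequence, the share of 50-base stretches of the canonical transcript with an exact copy elsewhere in GRCh37 ran from 0.971% (RPS21) to 98.2% (RPS3A), with a median of 34.2%, and 20 members were at 50% or more. These 20 had a median level of 243 RPKM, and the other 35 had 471. Over the 55 genes the level and the copied share had a Spearman rho of −0.38, a description across genes, which are not independent. The levels of the copied genes, RPS28 (23.2% copied), RPS27 (95.05%) and RPL7 (66.3%) among them, are therefore uncertain in size, and reads of gene and copy cannot be told apart here. For RPS28 the copied stretches were 297 of 1281, and for RPS27, with a shorter canonical transcript, 288 of 303. The copied share, like the level per kb, depends on the transcript length used. RPS10 and RPL26 share 84.0% and 65.3% of their exonic bases with another gene on the same strand. RPL10 and RPL30 share 53.6% and 51.4% with a gene on the opposite strand, and the library kit is not one that marks strand.

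Across libraries the members varied little. The s.d. of the log2 value over 45 libraries had a median of 0.22 for the members, with a range of 0.14 to 0.46, against 0.40 for all genes. Genes that are no members but had a median log2 value within the middle range of the members (7.68 to 9.29, 726 genes) had a median s.d. of 0.27, and the members in that range had 0.22. RPL24, RPL26 and RPL30, all 60S proteins, were the steadiest, at 0.14, 0.14 and 0.15. The 6 members above 0.3 were RPS27 (0.46), RPL13A (0.38), RPS12 (0.37), RPL7 (0.35), RPS28 (0.34) and RPS24 (0.32). Of these, RPS27, RPS28 and RPL7 are the 3 of lowest level, where counting error adds to the spread. RPL13A and RPS12 were abundant, and the spread of neither rests on few reads. RPL13A, a 60S protein that also takes part in interferon-gamma-induced translational silencing, ran from 8.20 to 9.62 with a median of 9.06. RPS12, a 40S protein, ran from 7.92 to 9.29 with a median of 8.81.

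The members moved together. For each gene the log2 value was set against the median profile of the other 54 members over the 45 libraries. The median Pearson correlation was 0.81, and 50 of 55 members exceeded 0.5. Among the 15643 genes that are no members 6.47% exceeded 0.5 with the profile of all members, and their median was −0.00013. These genes were not matched to the members in level, and they include the other ribosomal protein genes and the measured pseudogenes. The points share the scaling of each library, and the values are descriptions with no test. RPL31 (0.94), RPL4 (0.93) and RPS3 (0.93) were most alike. RPL31 and RPL4 are 60S proteins that line or lie near the exit tunnel, and RPS3 is a 40S protein at the mRNA entry channel with a role in DNA repair. One component accounted for 58.9% of the variation among the members and the next for 7.71%. Both subunits gave the same picture, since the median of the 40S members and that of the 60S members in the same library never differed by more than 0.13 on the log2 scale, with a median difference of 0.04.

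**Figure D2:**
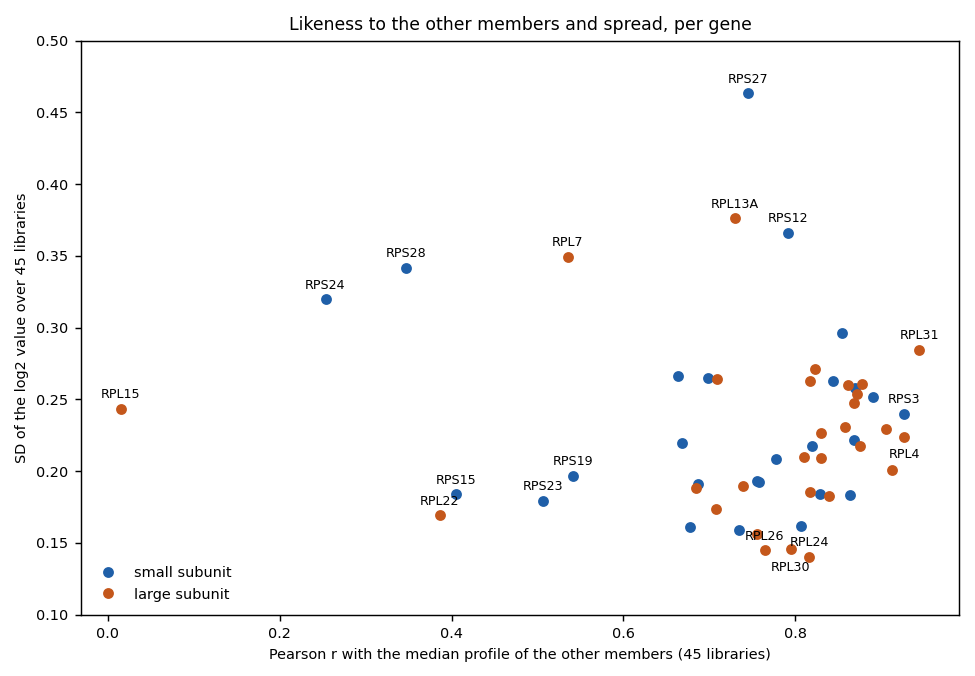
Pearson correlation of each gene with the median profile of the other members (x) and s.d. of its log2 value over 45 libraries (y), 1 point per gene, blue for 40S and orange for 60S members. Most genes lie at the right with an s.d. near 0.22, RPL15 lies alone at the left at 0.02, and RPS27 on top at 0.46.

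The 6 members least like the others were RPL15 (0.02), RPS24 (0.25), RPS28 (0.35), RPL22 (0.39), RPS15 (0.41) and RPS23 (0.51). RPL15 is a 60S protein and a gene of Diamond-Blackfan anaemia, and its correlation was −0.09, 0.14 or 0.13 with other scalings of the libraries, so its sign is not settled. RPL22 is a 60S protein that is not needed for translation as such and has a paralog, RPL22L1. RPS15 is a 40S protein at the decoding site, and RPS23 is a 40S protein of the decoding centre. With the exception of RPS28 these genes were measured on over 1000 reads in every library. The map of all members and libraries shows the shared pattern and the rows that break it.

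**Figure D3:**
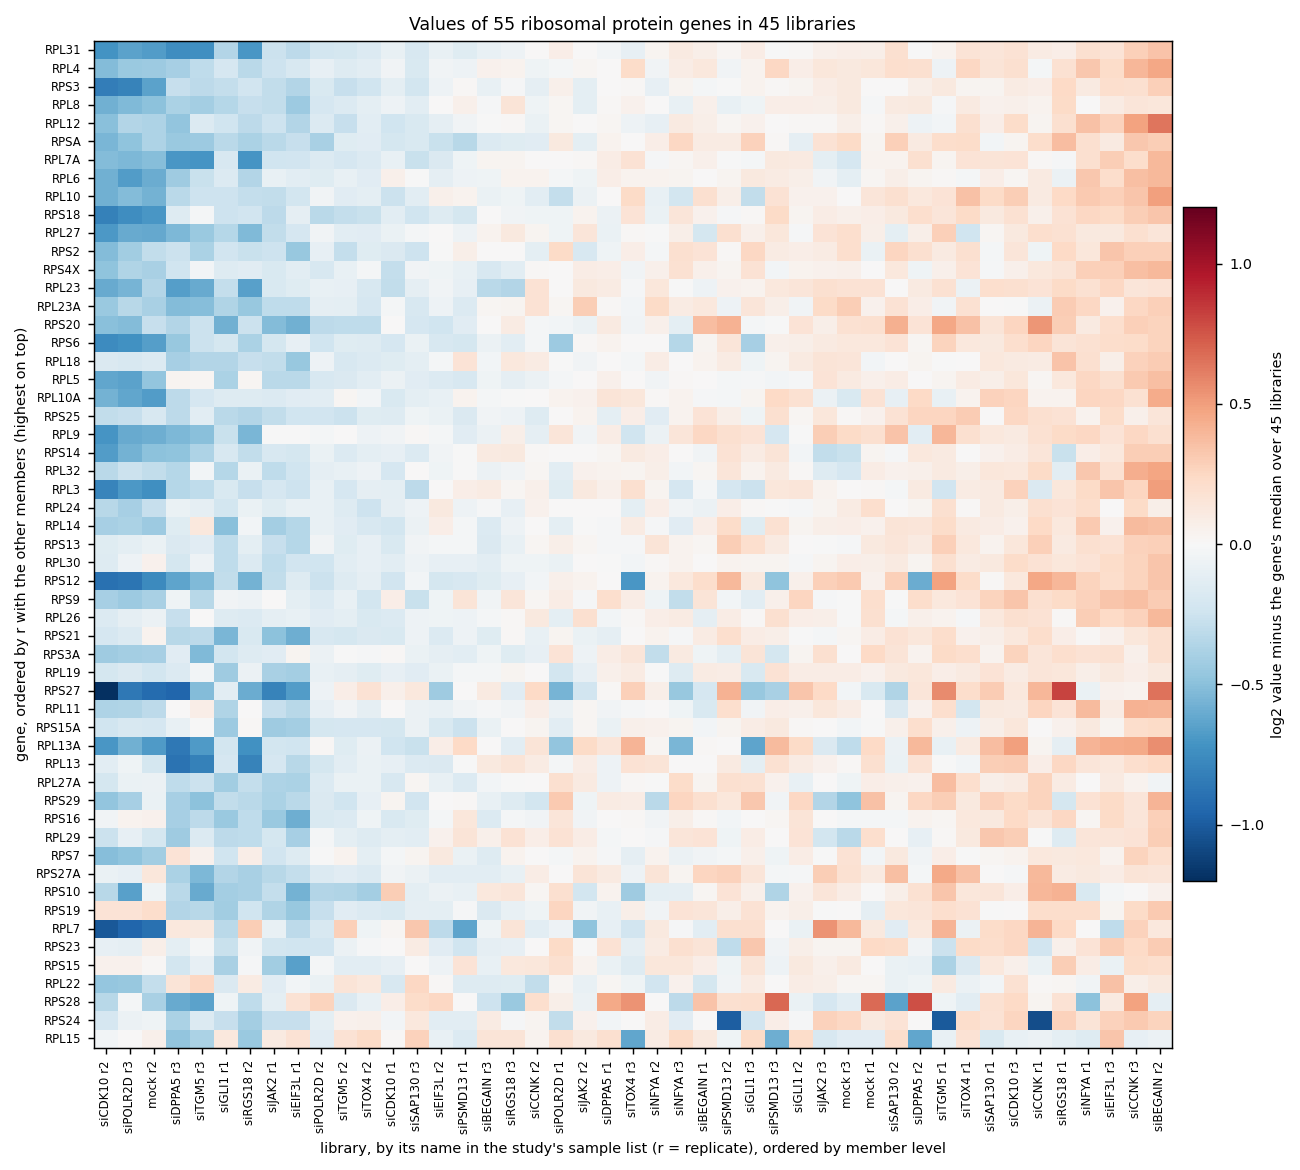
Log2 value minus the median of the gene over 45 libraries (colour, blue low and red high) for the 55 genes (rows, by correlation with the others) and the 45 libraries (columns, from the lowest to the highest member level). The left columns are blue and the right columns red in most rows, and the lowest rows, RPS24 and RPL15 among them, depart from this.

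To give each library 1 value, the member level was taken as the median over the 55 genes of the log2 value minus the median of that gene. It ran from −0.46 to 0.29, a spread of 0.75 on the log2 scale, and 34 of the 45 libraries lay within 0.2 of zero. The lowest were the libraries listed as siCDK10 replicate 2 (−0.46), siPOLR2D replicate 3 (−0.40) and mock replicate 2 (−0.37). In the first of these 53 of 55 members lay below their own median. The highest were siBEGAIN replicate 2 (0.29), where 3 members lay below their median, and siCCNK replicate 3 (0.25), where 1 did. The largest step in the order lay above the 9 lowest libraries, from −0.27 to −0.14. Their order and this step depend on the scaling of the libraries. With the total of reads as the scale the same 9 were lowest, but siDPPA5 replicate 3 came first (−0.39). The step above them then shrank, with siGLI1 replicate 1 at −0.16 and siTGM5 replicate 2, the next library, at −0.14. Of the 55 members 51 had their lowest value in 1 of these 9 libraries, 20 of them in siCDK10 replicate 2. In siBEGAIN replicate 2, 22 members had their highest value. The libraries were ranked by the median of these same members, so such counts follow in part from the ranking. No share over all genes was taken. Library size did not follow the member level (r = −0.07 over 45 libraries, as a description). In bulk RNA a lower share of these mRNAs in each cell and a different make-up of the cell population cannot be told apart.

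**Figure D4:**
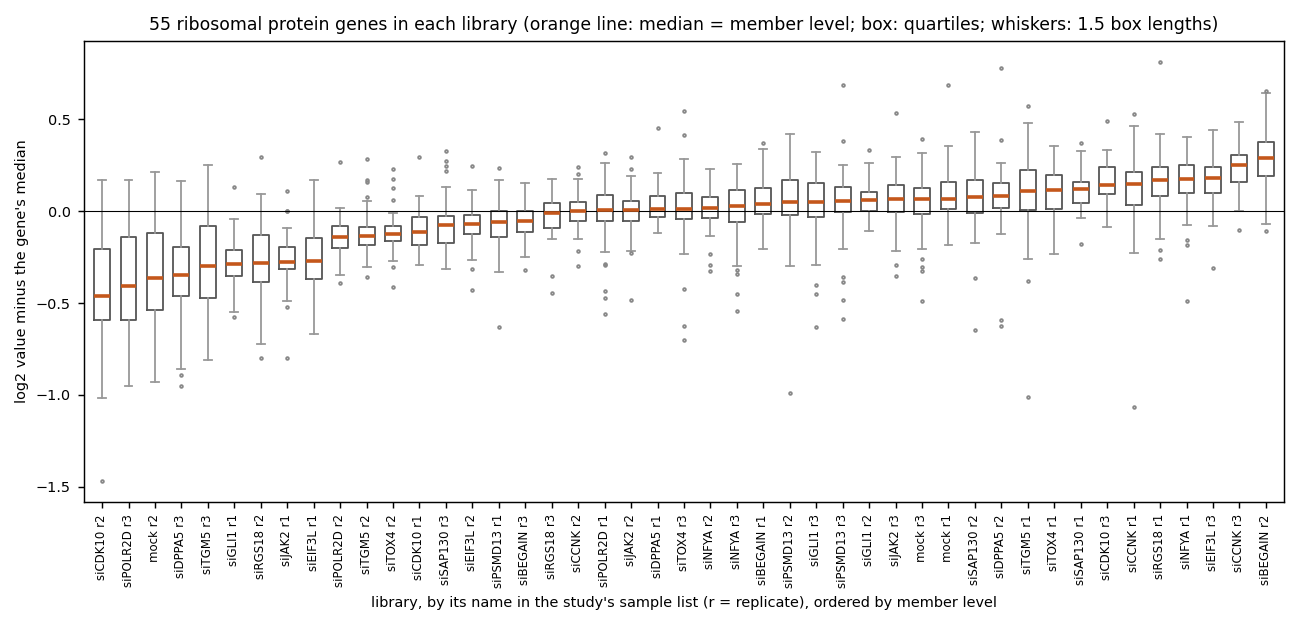
Log2 value minus the median of the gene over 45 libraries for the 55 genes, 1 box per library, where the orange line is the member level, the box holds the quartiles, whiskers reach 1.5 box lengths and dots are single genes beyond them. Libraries are ordered by member level on the scaling of the deposited values, from −0.46 on the left to 0.29 on the right. On that scaling the 9 on the left stand below the rest.

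The genes with known roles outside or beyond the ribosome followed the set to different degrees. RPL5 (median log2 value 9.47, lowest 8.82, highest 9.83) and RPL11 (9.73, 9.35 and 10.14), which together with 5S rRNA bind MDM2, had correlations of 0.83 and 0.74 with the other members. In 3 of the 9 lowest libraries both stood at about their own median while the set was low. In siTGM5 replicate 3 the member level was −0.30, and RPL5 lay 0.32 and RPL11 0.38 above it. In siDPPA5 replicate 3 the member level was −0.35, and they lay 0.38 and 0.35 above it. In siRGS18 replicate 2 it was −0.28, and they lay 0.31 and 0.28 above it. RPL22 was also higher than the set in these 3 libraries, by 0.55, 0.50 and 0.37, and RPS7, a 40S protein, by 0.35, 0.51 and 0.36. RPL13, a 60S protein, did the opposite there, with log2 values of 8.74, 8.66 and 8.76 against a median of 9.55 over all libraries. RPL23, a 60S protein, had its lowest value of all libraries in siDPPA5 replicate 3 (8.08 against a median of 8.74). It lay 0.37 below the set in siRGS18 replicate 2, its lowest deviation. RPS27A had its lowest value in siTGM5 replicate 3 (6.45 against a median of 6.99). Whether these differences go with roles outside the ribosome was not tested.

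RPS19, a 40S protein needed for rRNA maturation, had a median log2 value of 9.37 (8.92 to 9.68) and a correlation of 0.54. In the 3 libraries of lowest member level it stood at 9.54 (siCDK10 replicate 2), 9.54 (siPOLR2D replicate 3) and 9.58 (mock replicate 2), above its median and 0.63, 0.57 and 0.58 above the set. RPS15 stood at 7.24, 7.24 and 7.20 there, against a median of 7.19. RPS16, a 40S protein, was just below its median of 9.28 in the first of them, at 9.23, and above it in the others, at 9.31 and 9.33. In the library listed as siEIF3L replicate 1, where the member level was −0.27, all 3 were low instead, RPS19 at 8.92, RPS15 at 6.53 and RPS16 at 8.69. For each of the 3 genes that was the lowest of all 45 libraries. The libraries of low member level thus differed in which members were low.

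RPS27A had a median of 6.99 (6.45 to 7.45) and a correlation of 0.67. The X-linked 40S gene RPS4X had a median of 9.57 (9.09 to 9.96) and the X-linked 60S gene RPL10 one of 7.9998 (7.42 to 8.49), with correlations of 0.86 and 0.87. RPS4X and RPL10 stayed within 0.35 of the member level in every library, and RPS27A reached 0.50 above it in 1.

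Of the 2475 values (55 genes in 45 libraries) 98.3% lay within 0.5 of the member level of their library on the log2 scale, and 4 lay more than 1 away. RPS24 gave 3 of these. Its distance from the set was −1.22 in siCCNK replicate 1 (3294 reads, exact 95% Poisson interval 3182 to 3408, for counting error only), −1.12 in siTGM5 replicate 1 (4341 reads) and −1.04 in siPSMD13 replicate 2 (2528 reads). In the other 42 libraries it lay between −0.30 and 0.33. These 3 libraries were not low for the set as a whole, with member levels of 0.15, 0.11 and 0.05. Their log2 values for RPS24 were 8.35, 8.41 and 8.43, against a median of 9.42, and the difference is far larger than counting error. RPS23 was lowest against the set in the same 3 libraries, by smaller amounts (−0.37, −0.37 and −0.35). The 4th value was RPS27 in siCDK10 replicate 2, at −1.004 from the set on 17 reads (exact 95% Poisson interval 9.90 to 27.2).

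RPL15 had its 3 lowest deviations in siDPPA5 replicate 2 (−0.71), siPSMD13 replicate 3 (−0.64) and siTOX4 replicate 3 (−0.64), with log2 values of 7.84, 7.88 and 7.84 against a median of 8.47. RPS12 had its 3 lowest in the same libraries, at −0.67, −0.54 and −0.71. RPL13A was above the set in these 3 libraries, by 0.31, 0.32 and 0.40. The member level there was 0.08, 0.06 and 0.01. Apart from these, RPL15 lay 0.40 to 0.44 above it in 5 of the libraries with low member level, and at −0.35 and −0.36 from it in the 2 libraries with the highest, where its own value was near its median (8.37 in siCCNK replicate 3 and 8.40 in siBEGAIN replicate 2). RPL13A was lowest against the set in siGLI1 replicate 3 (−0.68), siNFYA replicate 3 (−0.57) and siDPPA5 replicate 3 (−0.51).

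**Figure D5:**
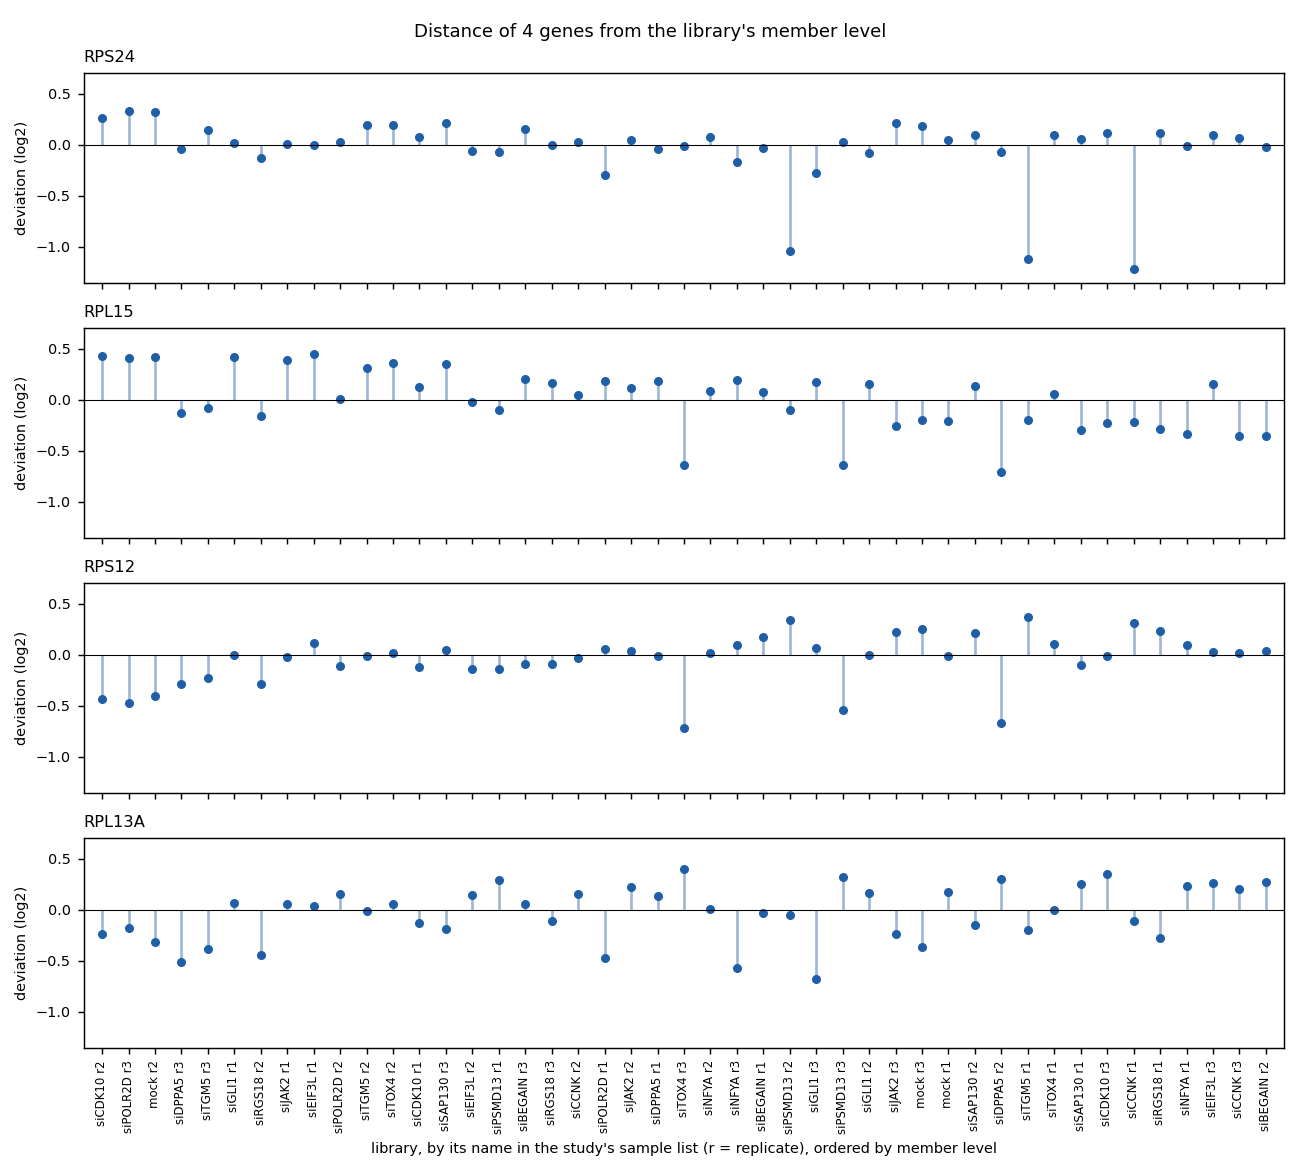
Distance of RPS24, RPL15, RPS12 and RPL13A from the member level of each library (log2), with libraries ordered by member level as in the box plot. RPS24 falls below −1 in 3 libraries and stays between −0.30 and 0.33 in the others, and RPL15 and RPS12 share their 3 lowest libraries.

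The design implies a comparison of each siRNA with mock. It was made here only by the listed names, since no library was given a condition from its values or its place in the matrix. Since the target genes go against these names, the groups are sets of libraries that carry the same name and are not shown to be replicates of 1 condition. The library listed as mock replicate 2, for instance, had 102 reads of POLR2D against a median of 1001, and siCCNK replicate 3 had 3 reads of JAK2 against a median of 110. The counts that follow therefore describe the names and carry no information on how the members respond to any siRNA. With Limma over all 15695 genes past the filter, a call needed an adjusted p under 0.05 together with a change of 1 or more in size on the log2 scale. No member was called in any of 14 comparisons (0 of 770 tests), and neither was any other gene, the siRNA targets included (0% in each). At an unadjusted p under 0.05 there were 3 of 770 member tests (0.390%), against 4.73% of 219730 gene tests. All 3 were under the name siCCNK, for which 4.57% of all genes passed. They were RPL32 and RPL6, 60S proteins, and RPS14, a 40S protein, each with a Limma adjusted p of 0.942.

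RPL32 had log2 values of 8.85, 8.65 and 9.05 in the libraries named siCCNK and of 8.71, 8.33 and 8.42 in those named mock. RPL6 had 7.96, 7.89 and 8.21 against 7.87, 7.26 and 7.74, and RPS14 had 9.04, 8.91 and 9.19 against 8.92, 8.40 and 8.63. The values overlapped for RPL32 and RPS14, and in all 3 genes the lowest was that of mock replicate 2. The member levels of the 3 libraries named mock were 0.07, −0.37 and 0.06.

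Other genes of translation were set beside the members from lists that hold none of them. Of 24 further cytosolic ribosomal protein genes 22 were measured, and their level had a correlation of 0.93 with the member level over the 45 libraries (0.91 without the 2 libraries farthest from the median), running from −0.44 to 0.28. Translation factors with a 5′ TOP (13 of 14 measured, EEF1A1, EEF2 and TPT1 among them) had 0.79 and ranged more widely, from −0.69 to 0.39. The 13 eIF3 subunits, which form the factor that brings mRNA to the 40S subunit, had 0.71, and 26 mitochondrial ribosomal proteins 0.59. For 26 genes of ribosome biogenesis, such as the RNA polymerase I subunits and the snoRNP proteins FBL and NOP56, it was 0.17 (0.04 without the 2 farthest libraries). The gene whose profile was most like that of the members, by Pearson correlation over 45 libraries among 15643 genes, was RACK1, a protein bound to the 40S subunit (0.94), followed by the pseudogene RPS3P3 (0.92) and RPL37A (0.92). The level of 84 ribosomal protein pseudogenes with a median of 100 reads or more followed the members at 0.99, which shared reads would also give. That part of it was not tested.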

How the data were processed

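The authors aligned single-end reads with TopHat to GRCh37, counted them per Ensembl gene with HTSeq, and deposited log2 values of counts per library after EdgeR and Limma-Voom normalisation (0.5 reads added to each count). Per the labels, CASAVA 1.8.2 and TopHat 1.4.1 were used. Whole reads were recovered from each library by taking its lowest value as 0 reads, and 100% of values came out whole within 0.001. Replicates were not pooled.

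Members and lists were chosen with earlier results of these data known. Column names follow the sample list of the study. Coordinates and canonical transcripts are from GENCODE release 44 on GRCh37, and all 55 members matched by symbol and identifier. Copies were searched as exact 50-base stretches on both strands. By listed names, limma 3.58.1 (R 4.3.3, lmFit and eBayes with trend, 45 libraries in 1 fit) was run on genes with a log2 value of −1 or more in 3 libraries, with Benjamini-Hochberg adjustment. The same fit was also run on simulated reads, and the outcome is not reported here. Members were named for extremes of level, s.d. and correlation, for the lowest p, or for known roles. Members named outside these rules (RPS7, RPS16, RPL13, RPL14, RPL23, RPS3A, and those given for pseudogenes, copies or overlaps) were chosen after their values were seen.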

Additional observations from a re-analysis of the deposited data

How the results depend on the processing

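By the listed names, which the target genes contradict, no member was called under any alternative run, the replicate block (0 called, 3 tests at an unadjusted p under 0.05) and each left-out library included. Libraries that share a replicate number had a median correlation of their departures from the mean under their name that was −0.000353 over 315 pairs (−0.566 to 0.832). As numbers and names come from the same list, whether the experiments pair the libraries cannot be told from this. The count at an unadjusted p under 0.05, which was 3, was 0 with only the 6 libraries of a comparison in the fit, 6 with libraries centred on their median, 5 after quantile normalisation and 7 with voom weights. Over all genes 4.73% of tests passed in the main fit, and 2.67%, 4.58%, 4.78% and 4.89% in these, in the same order. Leaving out 1 library gave a member count of 1 to 26, with the 26 without mock replicate 1 and the 1 without siCCNK replicate 3. It gave 8 without siCDK10 replicate 2, siPOLR2D replicate 3 or mock replicate 3, 7 without siBEGAIN replicate 3, 6 without siBEGAIN replicate 1, siGLI1 replicate 1, siDPPA5 replicate 3 or siEIF3L replicate 3, and 5 without siJAK2 replicate 1, siTGM5 replicate 1, siBEGAIN replicate 2, siCCNK replicate 2, siCDK10 replicate 3 or siPSMD13 replicate 3. The 26 were 3.38% of member tests, against 6.54% of all gene tests, and the 1 was 0.130%, against 4.65%. In every run the share of member tests lay below that over all genes. With 2 libraries left in a group, they are assumed to vary like the other groups. The median share of reads, 2.51%, was 3.22% with pseudogene reads added, an alternative chosen after the data were seen. It was 0.191% over the members without a measured pseudogene. As 50 of the 55 members have one, that sum covers only RPS9, RPS16, RPS21, RPS25 and RPL27A. Being a sum over fewer genes, it does not tell how much of the share comes from reads of pseudogenes. The spread of the member level, 0.75, stayed between 0.65 and 0.77, and the median correlation, 0.81, between 0.73 and 0.81, under every alternative run. The s.d. of RPS27 rose to 0.53 and the correlation of RPL7 fell to 0.28 after quantile normalisation, the cause of which was not tested. RPS27 and RPS28, with 17 and 20 reads in their lowest libraries, are limited by depth.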

Other observations

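The 9 libraries of lowest member level also held the lowest reads of 3 siRNA targets. These are given library by library, since the names of the libraries do not tell their condition. The reads of POLR2D, a subunit of RNA polymerase II (median 1001), were 147 in siCDK10 replicate 2, 87 in siPOLR2D replicate 3 and 102 in mock replicate 2, where member levels were −0.46, −0.40 and −0.37. In siDPPA5 replicate 3, siTGM5 replicate 3 and siRGS18 replicate 2 (member levels −0.35, −0.30 and −0.28) the reads of CCNK, the cyclin partner of CDK12 and CDK13, were 44, 42 and 43 against a median of 1021. EIF3L, a subunit of eIF3, had 106 reads in siGLI1 replicate 1, 123 in siJAK2 replicate 1 and 102 in siEIF3L replicate 1 (member levels −0.29, −0.28 and −0.27), against a median of 6113. JAK2, the kinase of cytokine receptors, had 7 reads in siBEGAIN replicate 2, 3 in siCCNK replicate 3 and 4 in siNFYA replicate 1 (median 110), where member levels were 0.29, 0.25 and 0.17. In siEIF3L replicate 3, whose level of 0.18 lies among these, JAK2 had 128 reads. Other targets were low nearer the middle of the order, such as CDK10 in siNFYA replicate 2 (12 reads, member level 0.02). TOX4 had 15 reads in siSAP130 replicate 3, at a member level of −0.08.

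Other sets did not follow the members equally in these libraries. The lists are not disjoint, since EIF3E, EIF3F and EIF3H are in the TOP and the eIF3 list and NPM1 is in the TOP and the biogenesis list. The translation factors with a 5′ TOP were at −0.69, −0.63 and −0.58 in siCDK10 replicate 2, siPOLR2D replicate 3 and mock replicate 2. They were at −0.00, 0.14 and 0.05 in siDPPA5 replicate 3, siTGM5 replicate 3 and siRGS18 replicate 2, and at −0.17, −0.21 and −0.13 in siGLI1 replicate 1, siJAK2 replicate 1 and siEIF3L replicate 1. The eIF3 list in that order of libraries was at −0.37, −0.47 and −0.38, then at −0.01, 0.14 and 0.05, and then at −0.23, −0.21 and −0.13. Genes of ribosome biogenesis in the same order were at −0.11, −0.29 and −0.13, then at 0.17, 0.07 and 0.16, and then at −0.20, −0.08 and −0.05, with siPOLR2D replicate 3 (−0.29) the lowest of all 45 libraries.

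RPS24 was lowest in siCCNK replicate 1, siTGM5 replicate 1 and siPSMD13 replicate 2, and GLI1, a transcription factor of Hedgehog signalling with a median of 10 reads, had 0 reads in each of them. A count of 0 allows up to 3 reads. RPL15 and RPS12 shared their lowest deviations in siDPPA5 replicate 2, siPSMD13 replicate 3 and siTOX4 replicate 3, where SAP130, a subunit of the Sin3 corepressor (median 703 reads), had 22, 31 and 25.

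By all genes other than ribosomal protein genes and their copies (15349), the library most like a given one never carried the same listed name, in 0 of 45 cases. The member level of a library and that of its most alike library differed by a median of 0.04, against 0.16 over all 990 pairs. The largest such difference was 0.47, for siEIF3L replicate 3 (0.18), whose most alike library was siGLI1 replicate 1 (−0.29).

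Of the other ribosomal protein genes, RPL41, which encodes the shortest 60S protein, had a correlation of −0.55 with the member level (median log2 value 4.52, s.d. 0.38), while 16 of the 22 exceeded 0.5. RPL28 varied most, with an s.d. of 0.51. Among the paralogs, 5 of 8 were measured, and their level had a correlation of 0.49 with the members.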
